A study of Mus musculus with 14 samples.

Results

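Tfap2c, Tead4, Elf5, Eomes, Gata3, Gata2 and Ets2, 7 genes for transcription factors of the mouse trophoblast, were followed through the binding sites of p300, RXRα, Sp5 and Zeb2 in mouse embryonic stem cells (mESCs) and in gastruloids. The genes were given by name. A region was a stretch of genome covered by a called peak in both replicate libraries of a group, and it was placed at one of these genes when the end of that gene was the nearest end of any protein-coding gene and lay within 100 kb of the strongest summit. Of 132214 regions in the 6 immunoprecipitation groups together, 115 lay at the 7 genes. These were 36 of 31014 p300 regions in mESCs and 30 of 53025 in gastruloids, 31 of 24698 RXRα regions in mESCs and 2 of 2352 in gastruloids, 7 of 10953 Sp5 regions and 9 of 10172 Zeb2 regions. Being nearest does not mean that a region acts on that gene.

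All libraries came from chromatin immunoprecipitation followed by sequencing in 1 mouse ES cell line, labelled E14_triple reporter and described in the growth protocol as a dual reporter with BRA-GFP and SOX17-RFP. mESCs grew in serum with LIF. Gastruloids, aggregates that model the elongating embryo, were started from 300 cells, given 3 µM CHIR99021, an activator of Wnt signalling, from 48 h, and taken at 120 h. Each protein carried a tag at its own gene: endogenous p300-V5-miniTurboID, precipitated with a V5 antibody, in mESCs and gastruloids (2 libraries each), and endogenous Rxrα-, Sp5- or Zeb2-HA-FKBP12F36V degron tag, precipitated with HA antibodies, for RXRα in both cell types and for Sp5 and Zeb2 in gastruloids (2 libraries each). Each cell type had 1 input library, from the p300 line, so the HA lines had no input of their own.

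The trophoblast is the outer lineage of the blastocyst that builds the fetal part of the placenta. In the trophectoderm TEAD4, the DNA-binding partner of the Hippo pathway's coactivators, acts upstream of Cdx2 and Gata3, while TFAP2C, ELF5, EOMES and ETS2 maintain trophoblast stem cells and GATA2 and GATA3 act in trophoblast giant cells. ES cells come from the inner cell mass and gastruloids form no placenta, but several of these factors are reused in the embryo, such as EOMES in the primitive streak and TFAP2C in naive pluripotency and germ cells. p300 is a histone acetyltransferase found at active enhancers, RXRα a nuclear receptor that binds DNA with partners such as the retinoic acid receptors, Sp5 an Sp-family factor that Wnt signalling switches on, and Zeb2 a zinc-finger repressor of E-cadherin.

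The lists held 3111 to 75346 peaks per immunoprecipitation library after removal of peaks at input peaks, with 12 to 32 fragments at the median summit. RXRα in gastruloids was the least even pair, with 29867 and 3111 peaks, of which 7.89% of the first list and 76.0% of the second were found in the other. The mESC input had no peak at the 7 genes and the gastruloid input had 1, at Tead4. Lists of genes for pluripotency and for the somite were set beside the labels. Of their p300 regions found in a single cell type, 47.1% and 87.5% were of gastruloids, against 71.1% over all genes. These gene lists were chosen with earlier results of these data known, so they are no independent check of the labels.

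The RefSeq promoter table (GRCm38.p6) held starts for 5 of the 7 genes (Elf5, Eomes, Gata2, Gata3 and Ets2). The 250 bases before 4 of these starts are shown because they fell into 3 states: the window of Ets2 was covered by regions of p300, RXRα, Sp5 and Zeb2, that of Gata3 by peaks of single libraries, and those of Eomes and Elf5 by no peak. Each runs 5′ to 3′ towards the start, on the plus strand of chr16:95702157-95702406 (Ets2), chr9:118477939-118478188 (Eomes) and chr2:103411848-103412097 (Elf5, the first of its listed starts) and on the minus strand of chr2:9878601-9878850 (Gata3). Capitals mark matches to the motifs searched on both strands.
Ets2: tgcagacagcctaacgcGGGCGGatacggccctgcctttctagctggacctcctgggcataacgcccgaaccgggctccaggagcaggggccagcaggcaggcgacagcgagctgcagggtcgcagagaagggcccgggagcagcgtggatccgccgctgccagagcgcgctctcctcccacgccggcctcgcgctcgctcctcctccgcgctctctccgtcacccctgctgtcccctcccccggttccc
Gata3: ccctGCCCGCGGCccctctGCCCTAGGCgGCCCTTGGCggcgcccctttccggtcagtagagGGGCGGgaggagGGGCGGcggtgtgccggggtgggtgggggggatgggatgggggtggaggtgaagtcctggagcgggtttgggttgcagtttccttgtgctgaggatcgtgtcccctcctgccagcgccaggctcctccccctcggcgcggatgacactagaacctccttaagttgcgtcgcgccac
Eomes: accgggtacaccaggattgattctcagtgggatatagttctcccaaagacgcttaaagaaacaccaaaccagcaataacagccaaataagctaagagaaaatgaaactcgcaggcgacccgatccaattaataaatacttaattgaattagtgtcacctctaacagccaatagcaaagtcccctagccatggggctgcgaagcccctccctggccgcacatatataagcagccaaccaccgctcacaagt
Elf5: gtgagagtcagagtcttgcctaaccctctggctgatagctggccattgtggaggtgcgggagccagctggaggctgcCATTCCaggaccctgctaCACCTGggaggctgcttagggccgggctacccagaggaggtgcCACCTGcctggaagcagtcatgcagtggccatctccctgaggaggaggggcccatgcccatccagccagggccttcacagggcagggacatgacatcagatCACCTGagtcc
The Ets2 window had a GC content of 71.6% and 25 CpG dinucleotides, against medians of 52.4% and 6 over 32817 windows of the same length. Its capitals are 1 GC box (GGGCGG, a site of Sp factors, in 32.7% of windows). Gata3, at 70% GC and 19 CpG, held 3 AP-2 sites (GCCNNNGGC, 13.7% of windows) and 2 GC boxes. Elf5, at 62.8% GC and 2 CpG, held 3 E-boxes of the type that Zeb factors bind (CACCTG, 17.2%) and 1 TEAD site on the other strand (GGAATG, 12.6%). The Eomes window, at 46.4% GC, held none of the 11 motifs searched. The others were the GATA site AGATAA (9.99%), the T-box site GGTGTGA (3.33%), the ETS site CCGGAAG (6.9%), the nuclear receptor half-site AGGTCA (14%) and its repeats known as DR1 (0.0335%) and DR5 (0.00914%), which hold that half-site, and the octamer ATGCAAAT (1.6%). The 2 windows of Gata2, not shown, were GC-rich too (67.2% and 74%, with 22 and 24 CpG), and no peak touched them. A match is a description of the letters and no measure of binding.

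The territories in which one of the 7 is nearest add up to 873 kb and in mESCs held 4.12 p300 regions per 100 kb, against 1.48 over the territories of all 21883 protein-coding genes. Tfap2c, at 10.8, set much of this density: without it the other 6 held 2.76, with Tead4 at 4.78, Eomes 4.24, Gata2 3.07, Elf5 2.11, Ets2 1.70 and Gata3 1.39. In gastruloids the density was 3.44, and 3.04 without Tfap2c, against 2.50. The 7 genes were uneven: in mESCs Tfap2c held 16 of the 36 regions, Tead4 6, Eomes 5, Ets2 3, and Elf5, Gata3 and Gata2 2 each. In gastruloids Tfap2c and Ets2 held 8 regions each, Eomes 7, Tead4 4, and Elf5, Gata3 and Gata2 1 each. Only 8 genes, Tfap2c included, had 16 or more p300 regions in mESCs, where the median of the 10798 genes with any was 2 and the maximum 23.

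Regions were sorted by the peaks of the same protein in the other cell type. Of the 36 p300 regions in mESCs, 20 (55.6%) overlapped no gastruloid peak, against 43.8% of such regions over all genes, and 12 (33.3%) overlapped peaks of both gastruloid libraries, against 44%. Of the 30 gastruloid regions, 15 (50.0%) overlapped no mESC peak, against 64.0%, and 12 (40.0%) overlapped peaks of both mESC libraries, against 26.2%. Among the regions of a single cell type, 15 of 35 (42.9%) were therefore of gastruloids, against 71.1% over all genes. By gene, gastruloid regions outnumbered mESC regions at Eomes (5 against 2) and Ets2 (4 against 1), the numbers were equal at Elf5 (1 each), and mESC regions were more at Tfap2c (9 against 3), Tead4 (4 against 1), Gata3 (2 against 1) and Gata2 (1 against 0). Without Tfap2c the share was 52.2% (12 of 23). Of the lists, the second p300 gastruloid library was the longest: without the first gastruloid library the gastruloid-only count was 30 and the share 58.8% (77.5% over all genes), and without the second 23 and 50.0% (72.2%). With 2 libraries against 2 an exact test cannot go below p = 0.33, so these counts carry no test, and nothing in the labels tells whether the replicates were separate cultures.

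**Figure D1:**
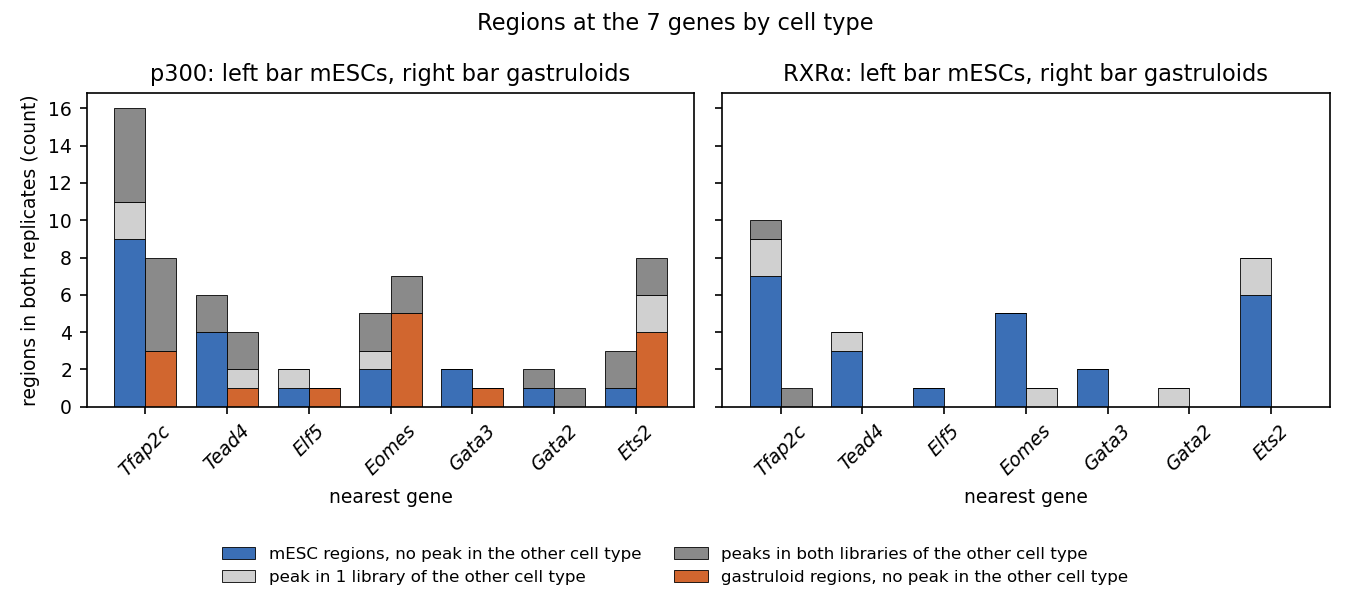
Number of regions at each of the 7 genes (vertical axis) for p300 and RXRα, with mESCs as the left and gastruloids as the right bar of each pair. Colours give the peaks of the same protein in the other cell type; Tfap2c has the most p300 regions in mESCs (16), Ets2 and Eomes have more in gastruloids than in mESCs, and RXRα is nearly absent from the gastruloid bars (2 regions).

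Height was given by the authors' fold enrichment, the ratio of the summit's signal to a local background, and was not compared between cell types. Whether that background came from the same library or from an input is not given. Among the p300 regions of these genes, those shared by both cell types stood highest. In mESCs the shared regions had a median fold (of replicate means) of 14.0 and those without a gastruloid peak 6.14, where all genes had 9.18 and 6.24. In gastruloids the medians were 9.54 and 6.63, where all genes had 7.57 and 5.95. The p300 regions lay away from gene ends: 1 of 36 in mESCs (2.78%, against 8.87% over all genes) and 3 of 30 in gastruloids (against 22.5%) had the summit within 1 kb of an end.

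**Figure D2:**
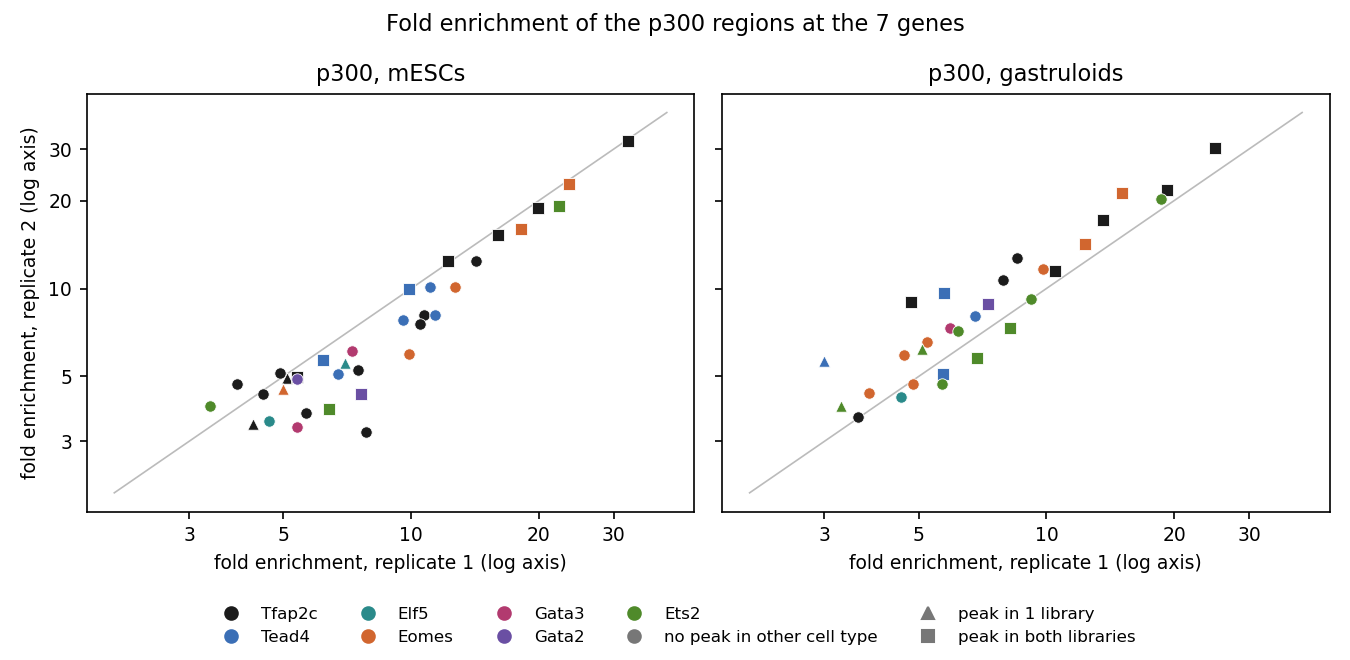
The authors' fold enrichment of each p300 region in replicate 1 (horizontal) and replicate 2 (vertical), on log axes, for mESCs and gastruloids; colour gives the gene, shape the number of libraries with a peak in the other cell type, and the grey line marks equal folds. Squares, the shared regions, lead in both panels, with Tfap2c at 32.4 and 32.0 in mESCs.

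Tfap2c (chr2:172545678-172558622), the gene of an AP-2 factor of trophectoderm, had 16 and 17 p300 peaks in the mESC libraries and 9 and 11 in the gastruloid libraries. Its highest p300 region in both cell types was the same one, 18838 bp beyond the gene's end of higher coordinate, at chr2:172577137-172577761. There the p300 folds were 32.4 and 32.0 in mESCs, from 2097 and 1413 fragments at the summit, and 24.9 and 30.2 in gastruloids, from 279 and 224. All 4 folds stood at the 99.9th percentile of their own lists. By p-value the peak ranked 44 of 44506 and 49 of 35371 in mESCs, and 209 and 249 in gastruloids. RXRα in mESCs was at the same place with folds of 22.9 and 23, and neither gastruloid library of RXRα, Sp5 or Zeb2 had a peak there.

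On the other side of Tfap2c, 28849 bp beyond its end of lower coordinate (chr2:172516458-172517132), all 4 proteins met. The p300 folds were 19.9 and 18.8 in mESCs and 19.2 and 21.7 in gastruloids. RXRα stood at 9.64 and 8.19 in mESCs, Sp5 6.47 and 4.14, and Zeb2 7.96 and 9.61. RXRα had no gastruloid peak here. It was 1 of 3 p300 gastruloid regions of the 7 genes that held 2 or more of the other factors in gastruloids.

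About 4 kb nearer, 24505 bp from the same end, the order of the proteins was different: RXRα in mESCs had folds of 14.3 and 13.7 and ranked 73 and 62 by p-value in its lists. p300 there had folds of 4.49 and 4.36 with no gastruloid peak, at the 25.4th and 20.9th percentiles, although its summit held 221 and 153 fragments. The local background recovered for those p300 peaks was 48.5 and 34.3 fragments, against medians of 4.23 and 3.73 over all peaks of the libraries. It was also high at the 2 regions above (63.7 and 43.2, and 46.7 and 32.7) and for RXRα at the regions 28893 and 24505 bp away (51.6 and 33.2, and 54.6 and 35.3). In gastruloids it was 10.3 and 6.45, and 16 and 11.5, for p300. The part of this background in the folds was not tested.

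The region 943 bp from the lower end of Tfap2c was shared: p300 had folds of 16 and 15.2 in mESCs and 10.5 and 11.5 in gastruloids (993 bp), RXRα 5.58 and 4.00 in mESCs (916 bp) and Zeb2 5.46 and 3.79 (805 bp). Inside the gene, 4977 bp from that end, lay the highest RXRα region of the 7 genes in gastruloids, with folds of 17.2 and 6.62. RXRα was there in mESCs too, at 10.6 and 10.8, which made it the single RXRα region of these genes found in all 4 RXRα libraries. p300 was present at this place in gastruloids only, with low folds of 3.59 and 3.64.

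Farther out on the higher side of Tfap2c, the place 55297 bp away held p300 at 5.38 and 4.97 in mESCs and 13.6 and 17.1 in gastruloids, RXRα at 5.13 and 4.54 in mESCs, and Sp5 at 11.3 and 7.61, its highest region at this gene. At 60601 bp stood the highest mESC-only p300 region, with folds of 14.2 and 12.4. At 71074 bp stood the highest gastruloid-only one, with folds of 8.51 and 12.7, where Zeb2 had folds of 10.5 and 6.16 and RXRα 5.78 and 3.12 in mESCs. At 35873 bp RXRα in mESCs had folds of 14.6 and 11.2, over an mESC-only p300 region of 10.7 and 8.13, and no gastruloid library of either protein had a peak. Both cell types thus had p300 on both flanks of Tfap2c, with 5 regions in common.

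**Figure D3:**
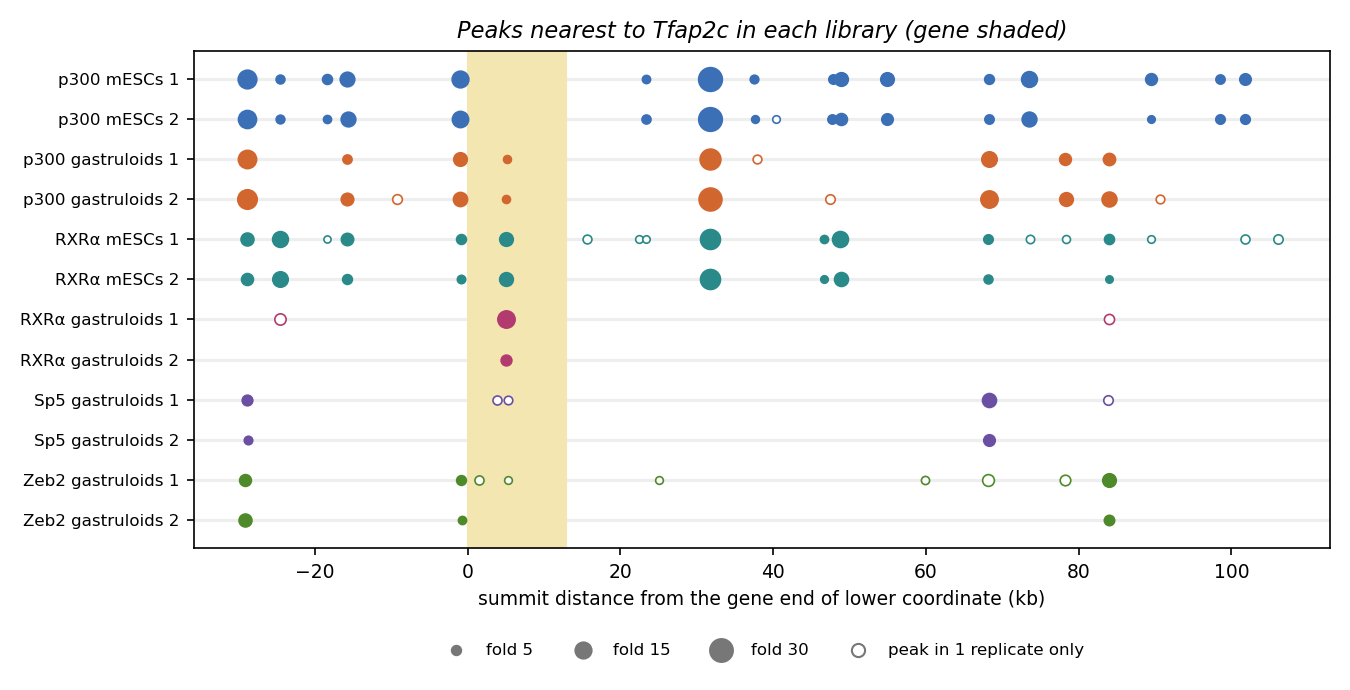
Peaks whose nearest gene is Tfap2c in the 12 immunoprecipitation libraries (rows), placed by the distance of the summit from the gene's end of lower coordinate in kb; the shaded band is the gene, point area grows with the authors' fold, and open points are peaks of 1 replicate only. The largest points, 18838 bp beyond the band, are in both p300 rows of each cell type and in the RXRα mESC rows.

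Tead4 (chr6:128227143-128300813), the gene of the TEAD factor that starts the trophectoderm programme, had 8 and 8 p300 peaks in mESCs and 5 and 6 in gastruloids. All 6 p300 regions of mESCs lay inside the gene, as did 46.1% of such regions over all genes. The highest mESC-only one was 19839 bp from the end of higher coordinate, with folds of 11.1 and 10.1. Of the shared ones, the highest lay 27612 bp from the end of lower coordinate, with folds of 9.90 and 9.93 in mESCs and 5.73 and 9.65 in gastruloids. The 1 gastruloid-only p300 region lay outside, 8911 bp beyond the higher end, with folds of 6.80 and 8.06.

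At the higher end of Tead4 itself, 300 bp inside, p300 had folds of 2.99 and 5.63 in gastruloids, with a peak in 1 mESC library. Sp5 was at the same place, 254 bp inside, with folds of 5.50 and 4.51. The higher of its 2 regions at Tead4 was 14838 bp inside, at 10.9 and 7.03, where p300 had no region. RXRα in mESCs was highest 1287 bp beyond this end, at 8.98 and 4.35, and its region with a peak in 1 gastruloid library, 19359 bp beyond the lower end, had 6.96 and 4.68. Zeb2 had peaks here in its first library (6) and second (1) but no region in common. Peaks at input peaks, 1 of which lay at Tead4, had been removed. With them kept, the 7 genes together had 10 Zeb2 regions, not 9, and 8 Sp5 regions, not 7.

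Elf5 (chr2:103412098-103450989), the gene of an ETS factor that guards the trophoblast fate, carried few regions, most of them low. In mESCs p300 had 2, upstream of the gene: at 51147 bp with folds of 6.97 and 5.54 and a peak in 1 gastruloid library, and at 39595 bp with 4.63 and 3.52 and none. The region at 51147 bp stood at the 57.0th and 40.0th percentiles of its lists. Its 1 gastruloid region lay inside the gene, 10887 bp from the end of transcription, with folds of 4.55 and 4.26 from 13 and 9 fragments. RXRα had 1 mESC region, 37360 bp upstream, at 4.89 and 3.75. No region of Sp5, Zeb2 or gastruloid RXRα lay at Elf5, although the first Zeb2 library and the first gastruloid RXRα library had 3 peaks each there. No peak touched the promoter window printed for it above.

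Eomes (chr9:118478186-118486132), the gene of a T-box factor of trophoblast stem cells and the primitive streak, had 5 p300 peaks in each mESC library and 8 and 13 in gastruloids. Its highest p300 region was shared and lay 88176 bp upstream (chr9:118389713-118390271), with folds of 23.6 and 22.7 in mESCs and 15.1 and 21.2 in gastruloids. RXRα in mESCs (9.11 and 5.37) and Sp5 (7.50 and 7.57) were at the same place, which was the only Sp5 region at Eomes. The other shared region, 71846 bp upstream, had folds of 18.1 and 16 in mESCs and 12.3 and 14.2 in gastruloids.

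The mESC-only p300 regions of Eomes lay near the end of the gene, 3677 bp inside it with folds of 12.7 and 10.1 and 2889 bp downstream with 9.89 and 5.96. The 5 gastruloid-only regions were mostly far upstream: at 93328 bp (folds 9.84 and 11.7, the highest), 73116, 54612 and 45378 bp, with 1 inside the gene, 1066 bp from its end (4.85 and 4.72). Thus the regions of a single cell type near the 3′ end included both kinds, and those more than 40 kb upstream were all of gastruloids. Downstream, 2194 bp from the gene, lay one of the 2 RXRα regions of gastruloids, with folds of 6.74 and 3.95 and a peak in 1 mESC library, and a Zeb2 region with 5.50 and 5.49 (2239 bp). The second Zeb2 region of Eomes began inside the transcribed part, at chr9:118478472-118479808, with folds of 6.11 and 4.03. Its strongest summit, in the first library, lay 1370 bp after the start, and that of the second library at 0.45 kb. RXRα in mESCs had 5 regions, all without a gastruloid peak of RXRα. By mean fold the highest was 8968 bp downstream (7.98 and 6.70).

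Ets2 (chr16:95702407-95721049), the gene of an ETS factor downstream of FGF signalling in trophoblast stem cells, had 7 and 4 p300 peaks in mESCs and 9 in each gastruloid library. The highest gastruloid-only p300 region of all 7 genes was here, 21705 bp downstream (chr16:95742547-95743153), with folds of 18.6 and 20.3 from 131 and 113 fragments, at the 98.6th and 98.3rd percentiles of its lists. None of the other factors had a peak there. The next, 85584 bp downstream, had folds of 9.21 and 9.22. The highest shared region, 46355 bp downstream, had p300 folds of 22.3 and 19.2 in mESCs and 8.19 and 7.35 in gastruloids, with RXRα at 17.4 and 11.9 in mESCs. The 1 mESC-only p300 region was low, at 3.36 and 3.96.

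The start of Ets2 was the only member promoter in the table with regions of p300, RXRα, Sp5 and Zeb2, and it is the GC-rich window printed above. The p300 region of gastruloids (chr16:95701686-95702794) had folds of 5.09 and 6.20 with a summit 179 bp upstream, and 1 mESC library had a p300 peak there. RXRα in mESCs had folds of 6.46 and 5.42 with a summit 3 bp inside the gene, with a peak in 1 gastruloid library. Sp5 had 6.0 and 5.90 at 37 bp upstream. Zeb2 had 2 regions, at 3.18 and 4.36 (200 bp upstream) and at 7.43 and 4.34 (477 bp inside). Over all genes such a window was covered by a p300 region of gastruloids in 44.2% of cases, by p300 of mESCs in 5.61%, by RXRα of mESCs in 14.7% and of gastruloids in 4.00%, by Sp5 in 32.7% and by Zeb2 in 21.2%.

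**Figure D4:**
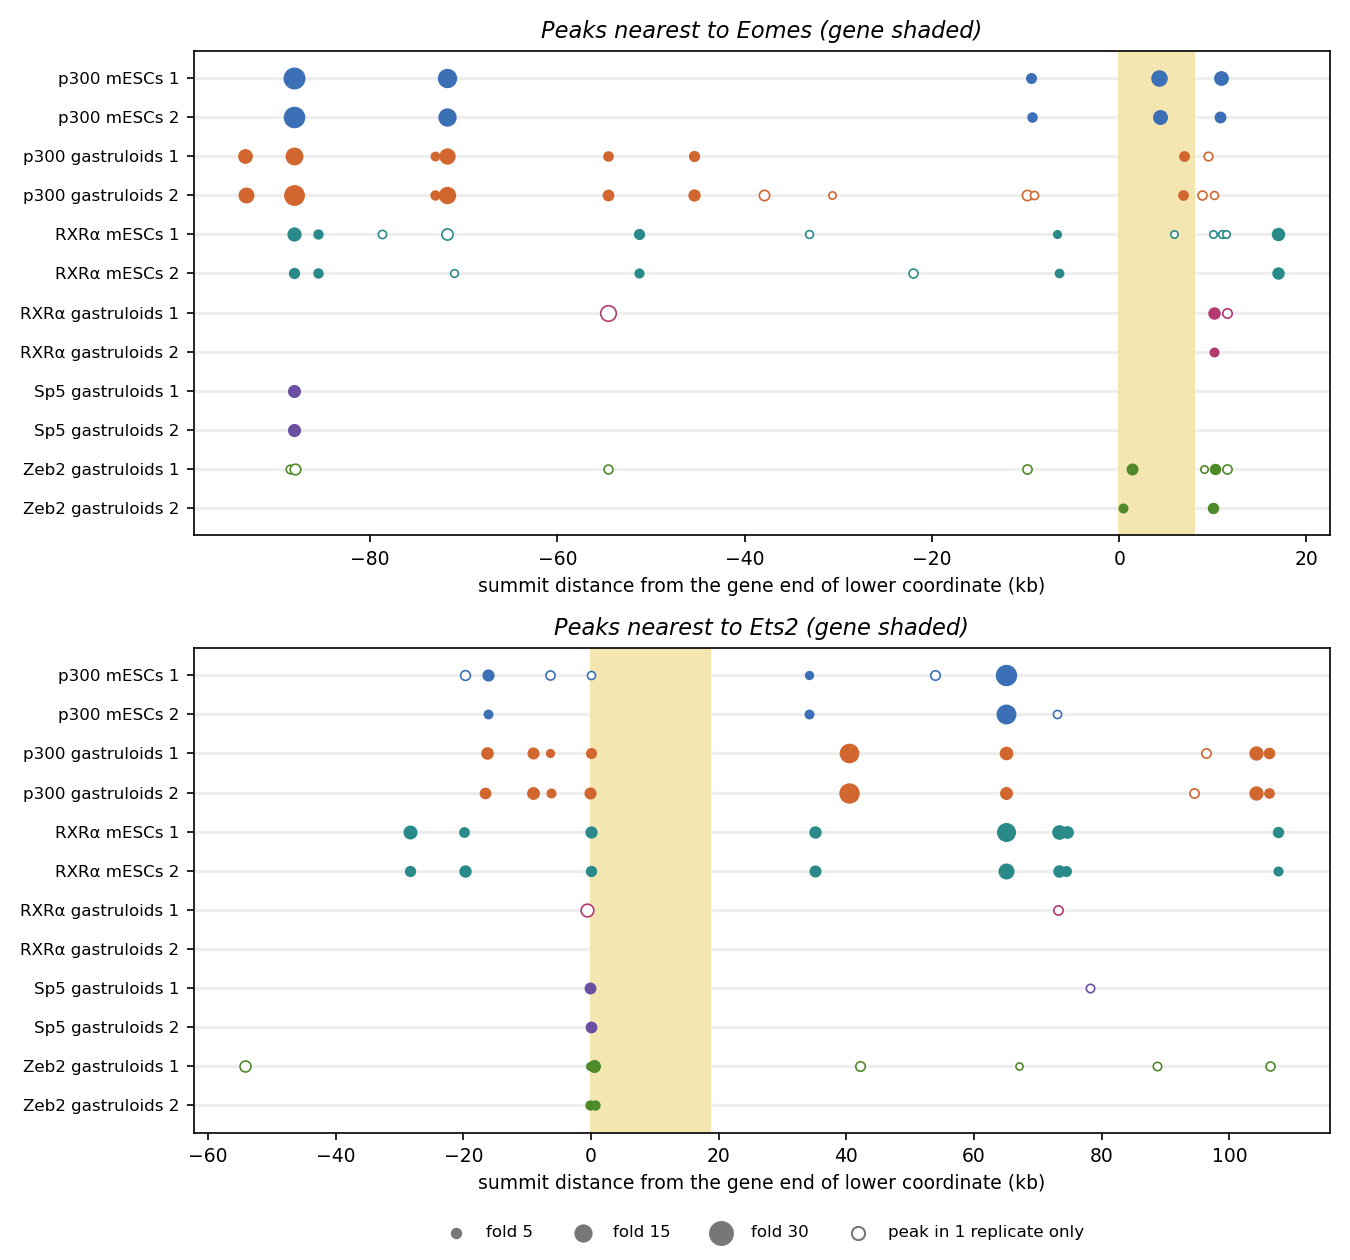
Peaks whose nearest gene is Eomes (top) or Ets2 (bottom) in the 12 immunoprecipitation libraries (rows), by summit distance from the gene's end of lower coordinate, its start, in kb; the band is the gene, point area grows with fold, open points are peaks of 1 replicate only. Upstream of Eomes, 4 gastruloid-only p300 pairs lie among 2 places that mESCs share, and at Ets2 the large gastruloid pair 21705 bp beyond the band has no partner in the mESC rows.

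Gata3 (chr2:9857078-9887953), a gene of trophectoderm and later of ectoderm and T cells, had 2 p300 peaks in each mESC library and 3 in each gastruloid library. No p300 region was shared. The mESC-only regions lay 1094 bp downstream (7.24 and 6.09), where RXRα had 5.62 and 3.88 in mESCs (949 bp), and 35932 bp downstream (5.39 and 3.36). The gastruloid-only region lay 3773 bp downstream, with folds of 5.92 and 7.34, and Zeb2 was at the same place with 6.34 and 3.98 (3554 bp). The highest RXRα region of mESCs lay 12246 bp downstream, at 7.33 and 5.11. Over the promoter window shown for Gata3, the GC-rich one with 3 AP-2 sites, 1 library each of p300 in gastruloids, Sp5 and Zeb2 had a peak.

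Gata2 (chr6:88193891-88207032), a gene of giant cells and of blood progenitors, had 3 p300 peaks in each mESC library and 2 and 1 in gastruloids. Nearly all of its binding met in 1 place about 4 kb upstream (chr6:88189506-88190116). p300 had folds of 7.62 and 4.36 in mESCs and 7.30 and 8.83 in gastruloids, and RXRα 7.22 and 5.11 in mESCs with a peak in 1 gastruloid library. Sp5 had 12.7 and 7.56, the highest Sp5 region of the 7 genes in its first library, and Zeb2 6.13 and 4.25. The only other region was an mESC-only p300 region 41587 bp upstream, with 5.40 and 4.91. No peak touched either of the 2 promoter windows listed for Gata2.

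RXRα regions were found at all 7 genes in mESCs and at Tfap2c and Eomes in gastruloids. The first gastruloid library alone had 16 RXRα peaks, with at least 1 at each of the 7 genes, and the second had 2. Of its 31 mESC regions, 10 lay at Tfap2c, 8 at Ets2, 5 at Eomes, 4 at Tead4, 2 at Gata3, and 1 each at Elf5 and Gata2. Of these, 24 (77.4%) overlapped no RXRα peak of gastruloids, against 63.5% over all genes, and 1 (3.23%) overlapped peaks of both libraries, against 6.60%. Of the 2 gastruloid regions, 1 overlapped peaks of both mESC libraries (69.6% over all genes) and none was without an mESC peak (17.8%), so 0 of the 24 found in a single cell type were of gastruloids, against 2.58%. In density, RXRα had 3.55 regions per 100 kb of the members' territory in mESCs (2.90 without Tfap2c) against 1.31 over all genes, and 0.229 (0.138 without Tfap2c) against 0.125 in gastruloids. The second gastruloid list was short, and without it gastruloid-only regions were 5 and regions in both cell types 7. Without the first mESC library there was 1 gastruloid-only region, and without the second there were 44 mESC-only regions and 2 in both cell types.

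In mESCs RXRα regions lay at 12 of the 36 p300 regions (33.3%, against 37.6% over all genes), which is 12 of its own 31 (38.7%, against 42.4%). By class, RXRα lay at 9 of the 12 p300 regions shared with gastruloids (75.0%, against 52.2%), at 3 of the 20 mESC-only ones (15.0%, against 23.9%) and at none of the 4 with a peak in 1 gastruloid library. The 9 were 5 at Tfap2c, and 1 each at Tead4, Eomes, Gata2 and Ets2. All 5 shared regions of Tfap2c and the 1 of Gata2 held RXRα, against 1 of 2 each at Tead4, Eomes and Ets2. The share of 75.0% thus rested largely on Tfap2c. The counts at p300 mESC regions were chosen after their values were seen. Without the second RXRα library of mESCs the total of 12 was 22, and the split was narrower: peaks of the first library lay at 11 of the 20 mESC-only regions (55.0%, against 43.7%) and at 10 of the 12 shared ones (83.3%, against 75.8%). Peaks of the second library alone lay at 4 (20.0%, against 24.6%) and 10 (83.3%, against 52.7%). Without the second p300 library of mESCs, RXRα lay at 5 mESC-only regions.

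In gastruloids the 3 factors were sparse at the members' p300 regions. Sp5 lay at 6 of the 30 (20.0%, against 20.9% over all genes), Zeb2 at 6 (20.0%, against 17.1%) and RXRα at 1 (3.33%, against 4.28%). All of these shares were near those of all genes. At 20 regions (66.7%, against 70.4%) there was none of them, and at 3 (against 11.2%) there were 2, Sp5 and Zeb2: the regions 28840 bp from Tfap2c, 4042 bp from Gata2 and at the start of Ets2. Of the 15 gastruloid-only p300 regions none held Sp5 (19.5% over all genes) and 2, at Tfap2c and Gata3, held Zeb2 (13.3%, against 15.7%). These 2 counts were chosen after their values were seen. The Sp5 count was 1 without either p300 library of mESCs and 2 without the second Sp5 library, and the Zeb2 count 6 without the second Zeb2 library. A peak of either RXRα library was at 6 of the 30 (20.0%, against 33.8%). Without the second RXRα library the RXRα count was 6, without the first p300 library it was 2 and the count with no factor 37, and without the second Zeb2 library the Zeb2 count over all 30 was 14.

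Counted from the factors' side, Sp5 had 2 regions each at Tfap2c and Tead4 and 1 each at Eomes, Gata2 and Ets2, and 6 of these 7 lay at p300 (85.7%, against 84.9%). Zeb2 had 3 at Tfap2c, 2 each at Eomes and Ets2 and 1 each at Gata3 and Gata2, and 7 of 9 lay at p300 (77.8%, against 78.1%). Of the 2 RXRα regions of gastruloids 1 did (86.0% over all genes). Few lay within 1 kb of a gene end: 2 of 7 for Sp5 (28.6%, against 64.6%), 3 of 9 for Zeb2 (33.3%, against 49.4%), 3 of 31 for RXRα in mESCs (9.68%, against 19.9%) and 0 of 2 in gastruloids (43.2%). Without its second library Sp5 had 14 regions and Zeb2 43.

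Among all genes, the pattern of region counts over the 6 groups most like that of Tfap2c was found at Rbpms, with a summed difference of 7 regions (16 and 14 for p300 in mESCs and gastruloids and 10 for RXRα in mESCs). Esrrb and Sgk1 followed with a difference of 8. For Tead4 the nearest were Chst3, Mier3 and Podxl, each at a difference of 1. For the other 5 genes, 10 to 88 genes lay within the distance of the third nearest, so none was named.

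Lists of related genes were described in the same way, by the share of gastruloid-only regions among p300 regions of a single cell type. The members stood at 42.9% with a median over genes of 33.3%. The 24 other trophoblast genes stood at 65.3% (49 of 75; median 66.7%), with gastruloid regions more numerous at 10 genes and fewer at 2. Among those with at least 4 such regions the highest shares were at Plac1 (8 of 9), a placental growth gene, and Fgfr2 (9 of 11), the FGF receptor of trophoblast stem cells. Bmp4, a ligand made by extraembryonic ectoderm, had the lowest (3 of 11), and Hand1 (3 of 6), Tfap2a (2 of 4) and Hopx (2 of 4) tied next. The 12 genes of the Hippo branch stood at 60.7% (34 of 56), with gastruloid-only regions more numerous at 6 genes and fewer at 3: Nf2, an upstream activator of the pathway, had 9 of 13 and Amotl1, a junction protein that holds YAP, 2 of 8.

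The 16 paralogs of the members stood at 71.4% (35 of 49), like all genes at 71.1%: Gata4, a factor of heart and endoderm, had 4 of 4, Gata6 4 of 5 and Ets1 6 of 6. Gastruloid-only regions were more numerous at 9 paralogs and fewer at 2, Elf3 (1 of 4) and Gata1 (0 of 2). The pluripotency list stood at 47.1% (40 of 85) and the somite list at 87.5% (70 of 80). For RXRα, gastruloid-only regions were 1 of 28 at other trophoblast genes, 0 of 28 in the Hippo branch, 0 of 20 at paralogs, 1 of 87 at pluripotency genes and 3 of 20 at somite genes. The members' share for p300 thus lay nearest to that of the pluripotency list. These shares were not tested, and the lists were not matched on the number of regions. The lists also overlap: the paralogs Tead1, Tead2 and Tead3 are in the Hippo branch too, and Tfap2a is among the other trophoblast genes.

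**Figure D5:**
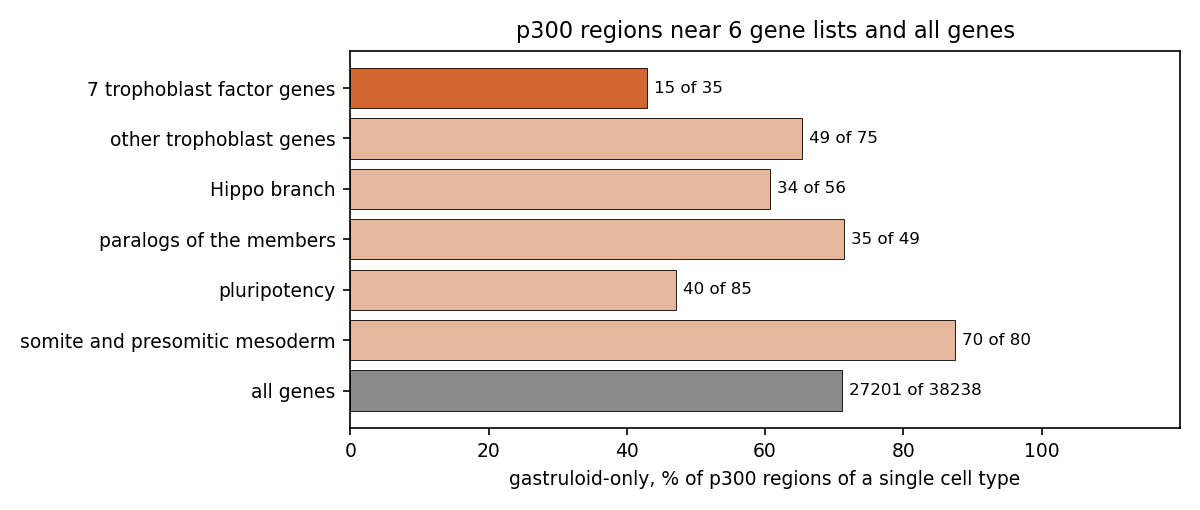
Share of gastruloid-only regions among p300 regions found in a single cell type (horizontal axis, %) for the 7 trophoblast factor genes, 5 other gene lists and all genes; the numbers beside the bars are regions. The members (15 of 35) and the pluripotency genes (40 of 85) have the lowest shares and the somite genes (70 of 80) the highest. Tead1, Tead2, Tead3 and Tfap2a are counted in the paralog list and again in another.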

How the data were processed

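Peak lists of 12 immunoprecipitation libraries and 2 inputs were analysed, grouped by the cell type and protein in their titles. The authors' tools, per the submitters' processing notes, were MACS2 2.2.7, BWA 2.2.1 and fastp 0.20.1, and the build GRCm38.p6 (mm10); whether an input served as control is not given in the sources used here. The deposited score of a peak is 10 times its −log10 q, rounded down. The deposited fold enrichment is a ratio of summit signal to local background, and the authors also gave a −log10 p and a −log10 q per peak (q threshold 0.05). Peaks on the 21 main chromosomes that overlapped no input peak were kept and joined between replicates by an overlap of at least 1 bp. Replicates were called separately. Ends of 21883 protein-coding genes came from RefSeq. Fragments and local background at summits were recovered from fold and −log10 p, taking the fold as (fragments + 1) / (background + 1); they were whole within 0.01 for 98.2% to 100% of peaks. Depth per library was not given, so a weak site can be missed in 1 library.

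Scripts used Python 3.11.15, numpy 2.4.6, pandas 2.3.3, scipy 1.17.1 and matplotlib 3.10.9, and the region step was tested on simulated data. Everything was described without tests. Named per gene were the region with the highest mean fold for each protein and class, regions within 1 kb of an end and p300 regions with 2 or more factors; other regions, and the examples from the Hippo and paralog lists, were named after their values were seen. Similar genes were the 3 with the smallest summed difference in counts, given where fewer than 6 lay within the distance of the third. The members and lists were chosen with earlier results of these data known. Alternatives covered replicates, the q threshold, list length, overlap, input peaks, distance and assignment. Reads and coverage were not analysed here.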

Additional observations from a re-analysis of the deposited data

How the results depend on the processing

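Of 178 recomputed totals, 126 stayed within 1.5 times the reported count and 52 did not; of 280 recomputed counts of single genes, 216 stayed and 64 did not. With gene ends within 20 kb, p300 regions were 9 mESC-only, 6 gastruloid-only and 6 in both cell types, mESC-only RXRα regions 12, Sp5 regions 4, p300 gastruloid regions with Sp5 3 and with no factor 9, and p300 mESC regions with RXRα 6 (1 mESC-only, 5 shared), and 1 gastruloid-only p300 region held Zeb2. Counting any summit within 100 kb of a member, whichever gene was nearest, gave 29 gastruloid-only p300 regions against 27 mESC-only ones (51.8% of these), 12 Sp5 regions, and 2, 11 and 36 p300 gastruloid regions with RXRα, with Sp5 and with no factor, and 20 p300 mESC regions with RXRα (6 mESC-only, 14 shared); 5 gastruloid-only p300 regions held Sp5. Lists cut to equal length gave 5 mESC-only RXRα regions and 0, 3, 2 and 3 p300 gastruloid regions with RXRα, Sp5, Zeb2 and no factor; fewer peaks entered these counts. RXRα then lay at 5 shared p300 mESC regions, and Sp5 and Zeb2 at 1 and 0 gastruloid-only ones. The gastruloid share of p300 was then 30.3% (10 of 33), and 40.0% (8 of 20) without Tfap2c, against 49.6% over all genes. At a −log10 q of at least 5, Zeb2 had 3 regions, 2 p300 gastruloid regions held Zeb2, and 1 gastruloid-only p300 region held Sp5 and 1 Zeb2. A larger required overlap and keeping peaks at input peaks moved none of the totals by over 1.5 times.

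Libraries were left out 1 at a time, so that a lone library stood for its group. This gave 16 to 30 gastruloid-only and 21 to 25 mESC-only p300 regions. For RXRα it gave 24 to 44 mESC-only, 0 to 5 gastruloid-only and 1 to 7 shared regions. Sp5 had 7 to 14 regions and Zeb2 10 to 43. The p300 gastruloid regions numbered 1 to 6 with RXRα, 6 to 8 with Sp5, 6 to 14 with Zeb2 and 16 to 37 with no factor, and the p300 mESC regions with RXRα 13 to 22 (3 to 11 mESC-only, 9 to 10 shared). Gastruloid-only p300 regions held Sp5 at 0 to 2 and Zeb2 at 2 to 6. No paired analysis was possible because the counts come from no test. Presence in a list stood for binding, and a call could rest on few fragments, such as the 13 and 9 of the p300 region inside Elf5.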

Other observations

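Some regions within 100 kb of a member lay nearer to another gene and were not counted above. Of the 5 p300 gastruloid regions within reach of Gata2, 4 were nearer to Dnajb8, Eefsec or Rpn1. Of the 11 at Tead4, 7 were nearer to Foxm1, Tspan9 or Tulp3, and of the 11 at Eomes, 4 were nearer to Golga4. At Elf5 3 of 4 were nearer to Cat or to Ehf, the gene of a related ETS factor. Tfap2c kept 16 of 18 p300 regions of mESCs and 8 of 9 of gastruloids, the others being nearer to Fam209.

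Zeb2 had 3 regions within 100 kb of Elf5, all nearer to Abtb2, Cat or Ehf. RXRα in gastruloids had 1 such region at Gata3, nearer to Taf3.

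The higher fold of a pair was mostly in the same replicate: replicate 1 was higher at 31 of the 36 p300 regions of mESCs (74.6% over all genes) and at 6 of the 30 of gastruloids (29.6%). It was higher at 26 of 31 RXRα regions of mESCs (84.4%), 6 of 7 Sp5 regions (92.6%) and 7 of 9 Zeb2 regions (85.2%).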
